A study of Homo sapiens and Mus musculus with 47 samples.

Results

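In all, 5 libraries of polyadenylated RNA from HEK293T cells, a human embryonic kidney line, were compared directly with each other: 3 from cells given an antisense oligonucleotide (ASO) against the long noncoding RNA (lncRNA) SETD5-AS1 and 2 from cells given an ASO against the lncRNA LINC00641. The libraries were taken by their labels and are 5 of the 47 samples of the series; the comparison itself was chosen with earlier results of these data known. The series otherwise maps RNAs near chromatin marks. The SETD5-AS1 group holds replicates 1, 2 and 3, and the LINC00641 group holds replicates 2 and 3. The comparison leaves out the control ASO, so it asks which genes differed between the 2 knockdowns rather than between a knockdown and its control. Control ASO and LINC00662 ASO libraries, 3 of each, enter the scaling of the levels and a fit of all 4 ASO groups, and are used below to show where a gene lies elsewhere.

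Both groups share the cell line, the library type and the ASO treatment, and differ in the labels only by the RNA targeted. The sample labels describe the constructs and the biotin labelling of the series for these libraries too (48 h of construct expression, 500 µM biotin-aniline over 30 min, then 1 mM H2O2 over 1 min), whereas the study's methods describe cells transfected with ASOs. Whether the ASO libraries went through the labelling is not given in the sources used here. Nothing in the labels says whether replicates were separate cultures, so the p-values measure only the spread between these libraries.

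An ASO is a short synthetic strand that pairs with an RNA by base complementarity, and ASOs with a DNA stretch recruit RNase H, which cuts the RNA of the duplex. Cutting can take place on the unspliced transcript in the nucleus as well as on the mature RNA, and a short stretch of pairing with another transcript can be enough for an ASO to bind it. SETD5-AS1 is transcribed head to head with SETD5, a gene of the SET domain family of chromatin regulators, while LINC00641 lies beside HNRNPC, whose product packages nascent RNA.

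The 6 oligonucleotides that the study lists for these 2 targets and for the control are shown because each is compared below with the genes that differed. All are 20 bases long, are written 5′ to 3′, and capitals mark the bases that pair with the intended target (the control has none and is in lower case). Whether the ASOs of 1 target were given singly or as a pool, and their chemistry, is not given in the sources used here.
SETD5-AS1-ASO-1: ATCAATGAGGATGTCATCAC
SETD5-AS1-ASO-2: TCTTGCTATCATGACAATAG
SETD5-AS1-ASO-3: CTTACGCAACGGATAAAGCC
LINC00641-ASO-1: GATGTGGAGCAACAGAAATG
LINC00641-ASO-2: GATAGTGGTATAGTAACTGG
ASOXNC23: ttctccgaacgtgtcacgtt

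On GRCh37 the 3 SETD5-AS1 ASOs pair in full with chr3:9432018-9432037, chr3:9432087-9432106 and chr3:9432132-9432151 on the minus strand, all within an exon of SETD5-AS1, which the GENCODE v44 annotation calls THUMPD3-AS1. The LINC00641 ASOs pair in full with chr14:21668966-21668985 and chr14:21668698-21668717 on the minus strand, both within an exon of LINC00641. LINC00641-ASO-1 has a further full match at chr5:63867375-63867394 on the plus strand, in an intron of RGS7BP, a regulator of G protein signalling. RGS7BP had 1.99, 1.59 and 1.99 CPM (library-scaled counts) with the SETD5-AS1 ASO and 1.53 and 1.21 CPM with the LINC00641 ASO, a difference of 0.44 on the log2 scale that was not called (edgeR adjusted p = 0.538). No full match of the control ASO was found in the genome.

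Levels in CPM are counts brought to a common library size, with TMM factors computed over the 11 ASO libraries. All fold changes are SETD5-AS1 ASO minus LINC00641 ASO on the log2 scale, from edgeR's quasi-likelihood test on the raw counts of the 5 libraries. A gene was called where its difference reached 0.75 or more on the log2 scale in either direction with a Benjamini-Hochberg adjusted p under 0.05, and is described as higher or lower from the side of the SETD5-AS1 ASO. With 3 libraries against 2, an exact permutation test of a single gene cannot give a p below 0.1, so the calls rest on the spread shared across genes.

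Each targeted lncRNA was lowest in its own group. SETD5-AS1 (ENSG00000206573.4, hg19 chr3:9391373-9440263) had 4.73, 4.24 and 3.97 CPM in the 3 libraries of its own ASO, 29.0 and 30.6 CPM with the LINC00641 ASO, 52.9, 53.4 and 53.5 CPM with the control ASO and 29.3, 28.2 and 28.1 CPM with the LINC00662 ASO. The groups compared did not overlap, and the difference was -2.79 ± 0.138 on the log2 scale (standard error, edgeR adjusted p = 2.98e-08). SETD5-AS1 overlaps SRGAP3 on its own strand and SETD5 and THUMPD3 on the other, so its count may include reads of those genes. With the LINC00641 ASO it also lay below the control ASO, at 55.9% of the control mean against 8.10% in its own group.

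LINC00641 (ENSG00000258441.1, hg19 chr14:21668238-21675059) had 0.916 and 1.93 CPM in the 2 libraries of its own ASO and 24.8, 29.7 and 25.3 CPM with the SETD5-AS1 ASO. It had 43.1, 38.5 and 41.4 CPM with the control ASO and 38.7, 33.2 and 33.9 CPM with the LINC00662 ASO. This was the largest difference among well-counted genes, 4.20 ± 0.222 on the log2 scale (standard error, edgeR adjusted p = 5.37e-08). In its own group it was at 3.47% of the control mean, and with the SETD5-AS1 ASO at 64.9%.

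SETD5 itself was not called. It had 209, 207 and 257 CPM with the SETD5-AS1 ASO and 291 and 288 CPM with the LINC00641 ASO, which differ by -0.37 on the log2 scale (edgeR adjusted p = 0.0439), under the size required. Replicate 3 of the SETD5-AS1 ASO was the nearest to the other group. Both groups lay above the control ASO, at 131, 124 and 145 CPM.

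**Figure D1:**
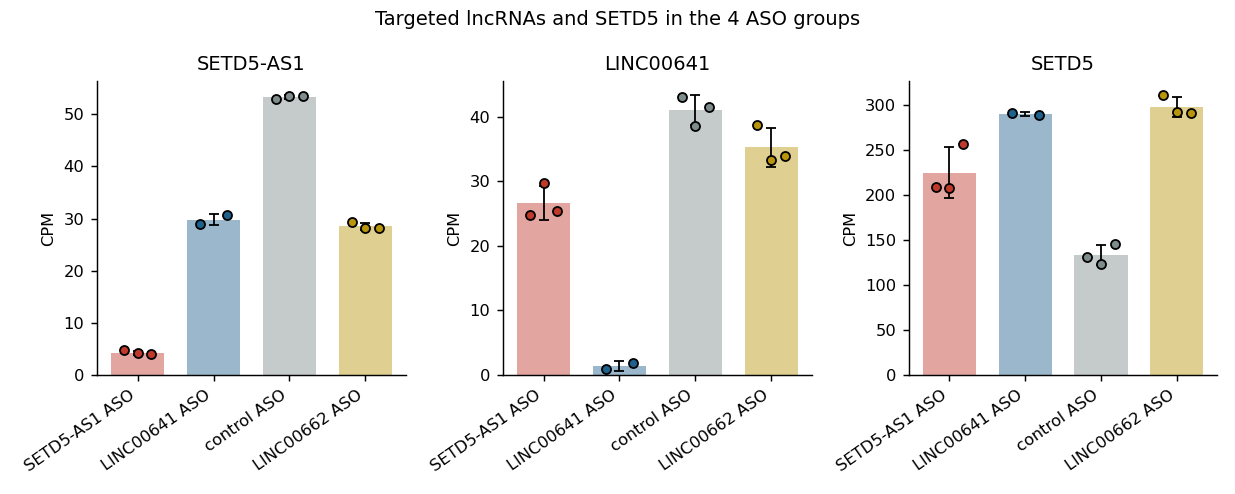
CPM (vertical axes, linear from 0) of SETD5-AS1, LINC00641 and SETD5 in the 4 ASO groups; points are libraries, bars group means and error bars the SD. Each targeted lncRNA was lowest in the group of its own ASO, while SETD5 was lowest with the control ASO.

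Within 500 kb of the targets no other gene was called by edgeR or DESeq2. With 1.72% of all genes called, counts of 0 in sets of 15 and 18 genes say nothing particular to them. Of the 15 tested neighbours of SETD5-AS1, 4 had an unadjusted p under 0.05, as did 6 of the 18 neighbours of LINC00641. These 2 counts are not set against a share over all genes. The nearest protein-coding genes were SRGAP3 and THUMPD3, which overlap SETD5-AS1, with log2 fold changes of 0.41 and 0.10. On the other locus HNRNPC lies 2.24 kb from LINC00641 and had a log2 fold change of 0.08 (edgeR adjusted p = 0.754), with overlapping groups. ZNF219, a zinc finger gene on the other side, had a log2 fold change of 0.21 (edgeR adjusted p = 0.235).

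The 5 libraries held 11619315 to 13839088 counts, with 2.18 to 2.93% of counts on mitochondrial genes. Replicate 3 of the SETD5-AS1 ASO stood apart from its 2 partners: a chi-square per gene of 11.2 and 10.3 separated it from replicates 1 and 2, against 4.23 between those and 6.01 between the LINC00641 libraries. All 14 HEK293T-associated markers were tested and none was called, but their summed level was 1416 to 1581 CPM with the SETD5-AS1 ASO and 1913 to 1969 CPM with the LINC00641 ASO. Of 12 colon markers 3 were at 0 in all 5 libraries (CDX1, CEACAM5 and TFF3), while CDX2 was at 28.3 to 34.5 CPM and EPCAM at 6.39 to 9.13 CPM, and the 12 summed to 36.4 to 39.6 CPM against 43.1 to 44.2 CPM. At 0 in all 5 libraries were also 4 of 12 blood, 3 of 10 fibroblast and 1 of 6 hepatocyte markers. Summed blood markers were at 5.07 to 5.40 CPM against 3.64 to 3.97 CPM, fibroblast markers at 53.1 to 59.6 CPM against 43.7 to 51.4 CPM and hepatocyte markers at 0.379 to 1.67 CPM against 0.285 to 0.305 CPM. No marker of these lists was called. Few could be, since only 2 colon, 3 blood, 6 fibroblast and 1 hepatocyte marker had the counts to be tested. The part of the marker differences in the results was not tested.

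Of 18337 genes tested, 191 were higher and 125 were lower with the SETD5-AS1 ASO, so that 1.72% were called, 1.04% in the one direction and 0.682% in the other. The 316 called genes did not overlap between the groups, as 38% of all tested genes did not. Fitted together with the other ASO groups, the same pair gave 381 called genes (2.06%), against 4517 (24.4%) between SETD5-AS1 ASO and control ASO and 4099 (22.1%) between LINC00641 ASO and control ASO. SETD5-AS1 ASO and LINC00662 ASO differed in 2100 genes (11.3%), and LINC00641 ASO and LINC00662 ASO in 1554 (8.39%). These contrasts share libraries and are given as counts only. Without replicate 3 of the SETD5-AS1 ASO the counts were 212 higher and 144 lower.

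The count of higher genes depended on the LINC00641 group having both of its libraries. Leaving out replicate 2 gave 92 higher and 85 lower genes, and leaving out replicate 3 gave 93 and 105. Scaling by library totals alone moved the split from 191 higher and 125 lower to 245 and 96.

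**Figure D2:**
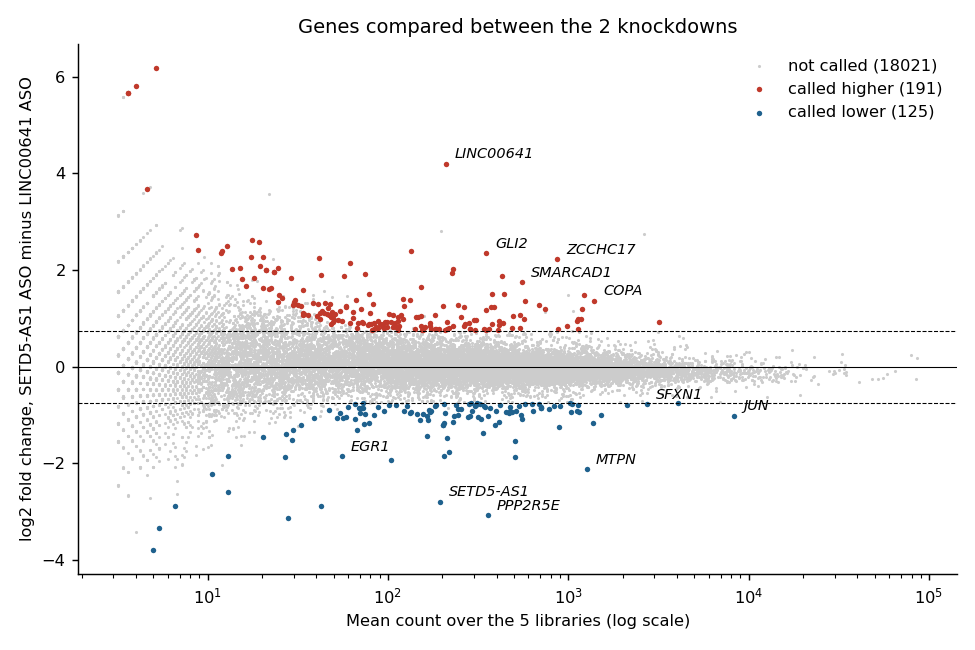
Log2 fold change (vertical axis) against the mean count over the 5 libraries (log scale) for the 18337 genes tested; red points are the 191 genes called higher and blue points the 125 called lower, and dashed lines mark 0.75 in either direction. LINC00641, SETD5-AS1 and PPP2R5E stand far from genes of like counts.

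Called genes came from longer loci than tested genes as a whole. The median span was 44.8 kb for the higher genes and 70.1 kb for the lower ones, against 27.7 kb over all genes tested. Protein-coding genes made up 80.1% of the higher, 88.8% of the lower and 77.4% of all tested genes. The higher set was less well counted, with 89 of 191 genes at a mean of 100 counts or more, against 89 of 125 in the lower set.

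At 10 of the 12 largest falls among well-counted genes, every SETD5-AS1 ASO library lay below all 8 libraries of the other ASO groups. SETD5-AS1 itself is counted among these genes. They were picked as called and without overlap, so their place below the LINC00641 ASO libraries was fixed by the choice. Only their place against the control ASO and LINC00662 ASO libraries was free to vary, and no share over other genes is given. PPP2R5E, a regulatory B subunit of protein phosphatase 2A, had 7.97, 6.66 and 5.64 CPM with the SETD5-AS1 ASO and 60.2 and 52.9 CPM with the LINC00641 ASO, with 29.3, 34.3 and 34.2 CPM with the control ASO. Its log2 fold change was -3.07 (standard error 0.128, edgeR adjusted p = 5.46e-09), and the SETD5-AS1 libraries lay below all 8 others. MTPN, which encodes myotrophin, a binder of actin capping protein, had 39.5, 40.5 and 41.8 CPM with the SETD5-AS1 ASO, 182 and 172 CPM with the LINC00641 ASO, 192, 198 and 171 CPM with the control ASO and 168, 158 and 171 CPM with the LINC00662 ASO. The SETD5-AS1 ASO group alone was low, and the log2 fold change was -2.12 (standard error 0.0826, edgeR adjusted p = 3.96e-09). MTPN shares its span with LUZP6 on the same strand.

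SOGA2, a microtubule-associated factor, had 19.7, 17.7 and 18.2 CPM with the SETD5-AS1 ASO and 73.5 and 62.3 CPM with the LINC00641 ASO, a log2 fold change of -1.87 (edgeR adjusted p = 6.28e-08). POLR3F, a subunit of RNA polymerase III, had 6.89, 8.25 and 7.62 against 27.8 and 26.8 CPM (-1.84, edgeR adjusted p = 1.14e-06). COIL, the scaffold protein of Cajal bodies, had 46.1, 46.4 and 38.4 against 109.5 and 97.0 CPM (-1.24, edgeR adjusted p = 3.75e-06). For these 3 genes the SETD5-AS1 ASO libraries were below every library of the other 3 ASO groups.

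STX5, a SNARE protein of the Golgi, fell by 1.36 on the log2 scale and MRPL13, of the mitochondrial ribosome, by 1.54, with every control ASO and LINC00662 ASO library above the SETD5-AS1 group in both. TEX22, whose span overlaps that of MTA1, fell by 1.93. PIGN, an enzyme of GPI anchor synthesis, had 8.47, 8.10 and 8.42 against 29.0 and 27.9 CPM, with 12.2 to 15.8 CPM in the control ASO libraries between them. The layout differed at PITPNM3 and NCK1. PITPNM3, a member of the PITPNM family, had 9.55, 9.62 and 9.21 CPM with the SETD5-AS1 ASO, 27.8 and 24.6 CPM with the LINC00641 ASO and only 6.05, 6.78 and 9.43 CPM with the control ASO. The SETD5-AS1 group was there at or just above the level of the control ASO, and the LINC00641 group was the highest. The LINC00662 ASO libraries, at 19.1, 17.7 and 19.9 CPM, were also above the SETD5-AS1 and control groups. NCK1, an SH2 and SH3 adaptor, had 7.14, 7.19 and 7.94 against 18.9 and 21.0 CPM and was lowest with the LINC00662 ASO, at 3.28 to 5.13 CPM.

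At 10 of the 12 largest rises, both LINC00641 ASO libraries lay below the other 9. LINC00641 itself is counted among these genes. By the same choice of genes, their place below the SETD5-AS1 ASO libraries was fixed, and no share over other genes is given. SMARCAD1, a SWI/SNF-like chromatin remodeller, had 58.9, 60.0 and 60.9 CPM with the SETD5-AS1 ASO and 17.4 and 18.2 CPM with the LINC00641 ASO. It had 63.8, 67.0 and 63.2 CPM with the control ASO and 57.6, 59.6 and 55.1 CPM with the LINC00662 ASO, so both LINC00641 libraries lay far below the other 9. Its log2 fold change was 1.75 (standard error 0.0961, edgeR adjusted p = 6.64e-08). AGTPBP1, a carboxypeptidase that trims glutamate from tubulin, had 48.9, 47.6 and 46.8 against 12 and 13.9 CPM (1.88, edgeR adjusted p = 1.06e-07). ELMO2, a partner of DOCK exchange factors, had 43.6, 44.1 and 51.3 against 15.5 and 17.3 CPM (1.5, edgeR adjusted p = 2.87e-06). In both the control ASO was near the SETD5-AS1 group, at 36.8 to 41.0 and 38.7 to 43.8 CPM.

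ZCCHC17, a nucleolar zinc knuckle protein, had 118, 91.8 and 90.1 CPM with the SETD5-AS1 ASO, 27.5 and 15.5 CPM with the LINC00641 ASO and 59.8, 80.6 and 69.2 CPM with the control ASO, a log2 fold change of 2.22 (edgeR adjusted p = 4.96e-06). GLI2, a transcription factor of the Hedgehog pathway, had 38.3, 41.9 and 41.6 against 7.94 and 7.99 CPM (2.35, edgeR adjusted p = 2.98e-08). Here the control ASO, at 13.9 to 17.3 CPM, lay between the groups. CD109, a GPI-anchored surface protein, rose by 1.94 on the log2 scale, TMEM168 by 1.65 and CMSS1 by 1.49, each lowest in the LINC00641 group.

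At other large rises, DOCK4 and NRCAM, the SETD5-AS1 ASO libraries lay above all 8 others. DOCK4, an exchange factor for small GTPases, had 34.6, 41.9 and 42.9 CPM there, 13.7 and 14.4 CPM with the LINC00641 ASO, 16.3, 13 and 15 CPM with the control ASO and 6.97, 7.65 and 8.24 CPM with the LINC00662 ASO (log2 fold change 1.5, edgeR adjusted p = 4.38e-06). NRCAM, a neuronal adhesion molecule, had 23.2, 26.4 and 27.6 against 6.57 and 6.06 CPM, with the other 2 groups at 7.13 to 8.69 and 5.85 to 8.31 CPM.

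**Figure D3:**
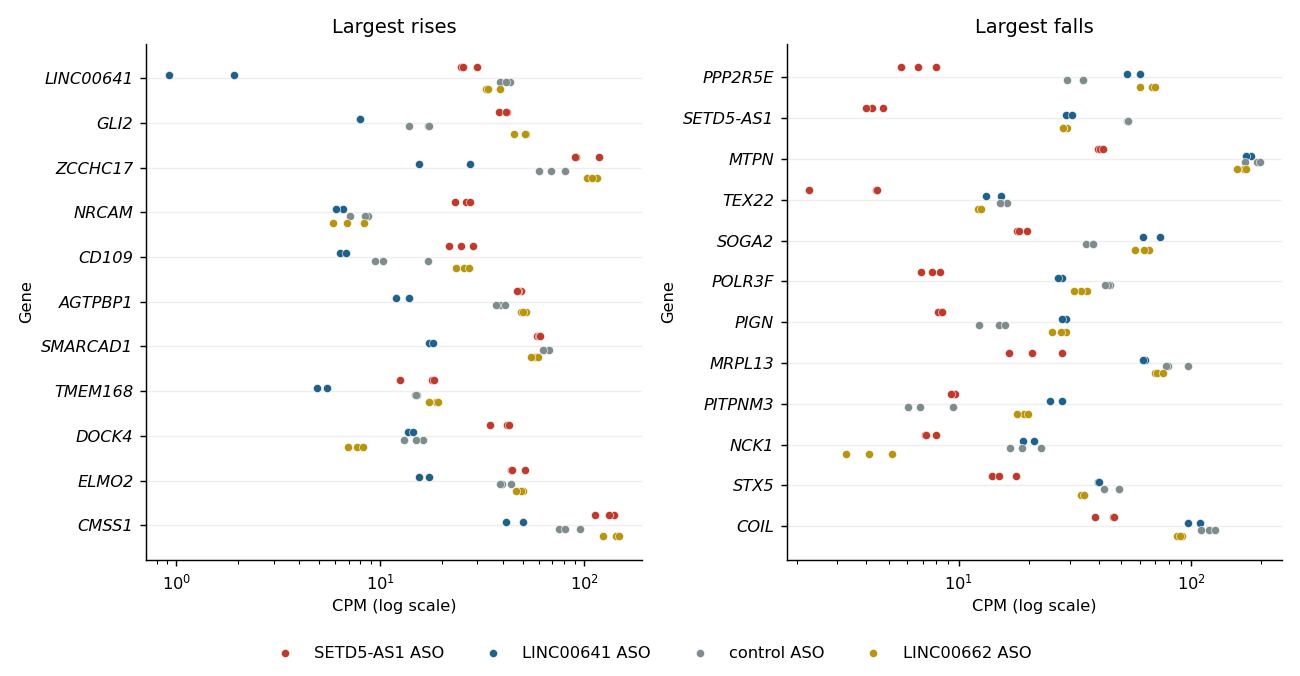
CPM (log scale) in every library of the 4 ASO groups for 11 of the 12 largest rises and for the 12 largest falls that averaged 100 counts or more; each point is a library. Only the SETD5-AS1 ASO (red) stands low at MTPN, and only the LINC00641 ASO (blue) stands low at SMARCAD1.

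Over all calls, a group mean was set against the 3 other ASO groups at 0.75 on the log2 scale of CPM with 0.5 added. Of the 125 lower genes, 28 were that far below all 3 others in the SETD5-AS1 group and 13 were that far above them in the LINC00641 group. Of the 191 higher genes, 39 were that far above in the SETD5-AS1 group and 28 that far below in the LINC00641 group. The remaining 84 lower and 124 higher genes met neither condition. All these genes were called for a difference of at least 0.75 between the 2 groups, so the comparison of these groups was largely met in advance. The counts are not set against a share over all genes. The control ASO mean lay between the 2 groups for 78 of the lower and 96 of the higher genes.

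The genes called were then read for complementarity to the ASOs, a description chosen after the calls were seen and with no test. For each of 18335 genes (2 tested gene copies on the part of chromosome Y that is masked in the assembly were left out), the span on its own strand was searched for the longest unbroken stretch that pairs with an ASO. A stretch of 12 bases or more to any SETD5-AS1 ASO was found in 52 of the 125 lower genes (41.6%), in 20 of the 191 higher genes (10.5%) and in 1006 of 18019 genes not called (5.58%). Longer spans hold longer stretches by length alone. Among genes of 20 to 200 kb the shares were 44.2% of 77 lower, 7.41% of 81 higher and 5.96% of 9093 not called genes, with median spans of 70.1, 60.9 and 52.1 kb.

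In the lower genes most of these stretches were to SETD5-AS1-ASO-1, whereas in the higher genes and in those not called SETD5-AS1-ASO-2 had the most. SETD5-AS1-ASO-1 had a stretch of at least 12 bases in 47 lower genes (37.6%) and 8 higher genes (4.19%), against 2.73% of genes not called. SETD5-AS1-ASO-2 had one in 6 lower genes (4.80%), in 13 higher genes (6.81%) and in 2.91% of genes not called. SETD5-AS1-ASO-3 had one in 2 lower genes (1.60%), in no higher gene and in 0.316% of genes not called. For the control ASO no lower gene and 1 higher gene had such a stretch.

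The share called rose with the length of the stretch. Among genes that averaged 100 counts or more, 0.211% of the 7113 genes with a stretch of 9 bases or less to SETD5-AS1-ASO-1 were called lower, then 0.527% at 10 bases, 2.20% at 11, 7.69% at 12 and 16.2% at 13. At 14 bases or more 6 of 19 genes were called lower (31.6%), with SETD5-AS1 itself among them, and the median log2 fold change of the 19 was -0.594. For this oligonucleotide the share called higher was 0.562% at 9 bases or less, 1.92% at 12 and 2.7% at 13, with none at 14 or more. The same stretches to SETD5-AS1-ASO-2, in genes of like span (median 145 kb at 12 bases, against 139 kb for the first oligonucleotide), gave 0.743% called lower at 12 bases, 2.78% at 13 and 4.55% at 14 or more, the last being 1 of 22 genes, SETD5-AS1 itself. The shares called higher at these lengths were 1.49%, 2.78% and 4.55%.

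On the LINC00641 side a stretch of 12 bases or more to either ASO was found in 51 higher genes (26.7%) and 31 lower genes (24.8%). Among genes not called the share was 9.31%. Over all spans the 2 directions thus had like shares. Among genes of 20 to 200 kb the shares were 25.9% of 81 higher, 16.9% of 77 lower and 10.3% of 9093 not called genes. By oligonucleotide, again over all spans, the 2 directions parted. LINC00641-ASO-2 had such a stretch in 21 higher genes (11%), 5 lower genes (4.0%) and 1.76% of genes not called, while LINC00641-ASO-1 had one in 19.9% of higher, 22.4% of lower and 8.14% of uncalled genes. In the same well-counted genes, the share called higher was 0.437% at 9 bases or less to LINC00641-ASO-2, 3.20% at 11 bases, 5.41% at 12 and 14.3% of 35 genes at 13. At 14 or more it was 1 of 9 genes, LINC00641 itself. The share called lower also rose, from 0.687% at 9 bases or less to LINC00641-ASO-2 to 2.16% at 12 and 2.86% (1 gene) at 13. Median spans were 25.0 kb at 9 bases or less and 205 kb at 13. For LINC00641-ASO-1 the share called higher rose from 0.493% at 9 bases or less to 4.61% at 14 or more. Its share called lower was 0.568% and 1.32% at these lengths.

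**Figure D4:**
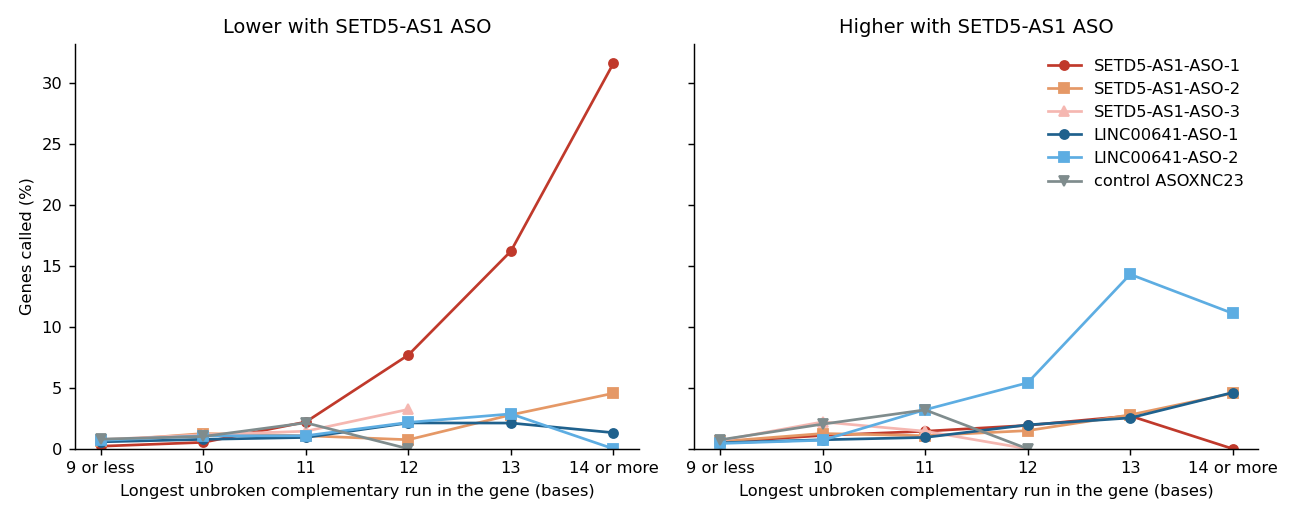
Share of genes called (vertical axis, percent) by the longest unbroken stretch complementary to each ASO in the gene's span (horizontal axis, bases), for genes that averaged 100 counts or more; left, lower with the SETD5-AS1 ASO, right, higher; bins under 9 genes are not drawn. The line of SETD5-AS1-ASO-1 climbs to 31.6% on the left and that of LINC00641-ASO-2 to 14.3% on the right.

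The layout by ASO group and the complementarity went side by side. Of the 28 lower genes at which the SETD5-AS1 group was far below all 3 others, 18 (64.3%) had a stretch of 12 bases or more to a SETD5-AS1 ASO and 7 (25.0%) to a LINC00641 ASO. Of the 28 higher genes at which the LINC00641 group was far below, 11 (39.3%) had one to a LINC00641 ASO and 4 (14.3%) to a SETD5-AS1 ASO. Over all genes searched the shares were 5.88% to a SETD5-AS1 ASO and 9.6% to a LINC00641 ASO. The shares to the other target's ASOs were thus also above those of all genes. The 2 sets had median spans of 52.1 and 52.5 kb, against 27.6 kb over all genes searched. The targeted lncRNAs are counted in these numbers.

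The stretches themselves are shown for some of the called genes, below the site of the target they resemble. Each line is 20 bases of the gene's own strand in GRCh37, 5′ to 3′, aligned to the full ASO, and capitals mark the longest unbroken stretch that pairs with SETD5-AS1-ASO-1.
SETD5-AS1: GTGATGACATCCTCATTGAT
PPP2R5E: GTGATGACATCCTCttttaa
MTPN: atggaGACATCCTCATTGAa
DPP4: tccgtctCATCCTCATTGAT
MTX3: GTGATGACATCCTgagcagt
COIL: GTGATGACATCCacttagaa

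The PPP2R5E site lies at chr14:63994835-63994854 on the minus strand, in an intron, and pairs over 14 bases, with 3 mismatches over the 20. PPP2R5E, which was higher in the LINC00641 than in the SETD5-AS1 group, also held a site with only 2 mismatches to LINC00641-ASO-1. The MTPN site is at chr7:135612811-135612830 on the minus strand in a UTR exon and also pairs over 14 bases, as does an intronic site of SOGA2 that is not printed. The stretch is 13 bases in DPP4, a cell surface peptidase (intron, chr2:162897916-162897935, minus strand), and in MTX3, a metaxin of the mitochondrial outer membrane (coding exon, chr5:79282795-79282814, minus strand). In COIL it is 12 bases (intron, chr17:55021520-55021539, minus strand). DPP4 had 0.830, 0.833 and 1.03 CPM with the SETD5-AS1 ASO and 7.71 and 5.63 CPM with the LINC00641 ASO (log2 fold change -2.88, edgeR adjusted p = 3.18e-05). MTX3 had 20.7, 19.5 and 23.2 against 40.9 and 52.0 CPM (-1.14, edgeR adjusted p = 4.25e-05). DPP4 and MTX3, like DHX57 and RPP14 below, were chosen for their stretches after their values were seen.

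For LINC00641-ASO-2 the capitals mark the stretch in the same way.
LINC00641: CCAGTTACTATACCACTATC
ZCCHC17: ccagaTACTATACCACTAcc
DHX57: ttgctttCTATACCACTATC
RPP14: tataggcCTATACCACTATC

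The ZCCHC17 site lies at chr1:31819787-31819806 on the plus strand, in an intron, and matches 18 of the 20 bases of the target site, 13 of them unbroken. The DHX57 site (chr2:39087739-39087758, minus strand) and the RPP14 site (chr3:58293942-58293961, plus strand) are also intronic, with 13 bases each. DHX57, a putative RNA helicase, had 60.9, 59.3 and 58.1 CPM with the SETD5-AS1 ASO and 25.0 and 21.3 CPM with the LINC00641 ASO (1.36, edgeR adjusted p = 1.82e-06). RPP14, a subunit of RNase P, had 37.9, 38.2 and 37.9 against 17.9 and 14.5 CPM (1.23, edgeR adjusted p = 1.46e-05). SMARCAD1, by contrast, had no stretch over 10 bases to either LINC00641 ASO, although its LINC00641 libraries were the lowest of all. PIGN had at most 11 bases to either set. Long stretches also lay in genes that went the other way, which are not printed. ELMO2, among the largest rises, held 13 bases to SETD5-AS1-ASO-1 and was at 114% of the control mean with the SETD5-AS1 ASO. SGMS2, called lower (log2 fold change -0.84), held 15 bases to LINC00641-ASO-1 and 12 to SETD5-AS1-ASO-1. A matching stretch is a description of the sequence, and whether an ASO bound or cut these RNAs was not tested.

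The lists of genes by function held few of the called genes. Of 37 lists, 22 had no called member, with 1.72% of all genes called. Among their 692 members tested 135 had an unadjusted edgeR p under 0.05, a count not set against a share over all genes. DESeq2 called none of the 692. This says little, since 150 of its 151 higher genes and all its 110 lower genes were also called by edgeR. Over all genes tested the median log2 fold change was 0.00857.

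Immediate early genes and feedback genes of the MAPK pathway, which are transcribed within minutes of a stimulus, were the list with most falls: 4 of 39 were called lower (10.3%, against 0.682% of all genes), none was called higher, and the median was -0.256. JUN, a subunit of the AP-1 transcription factor, had 469.5, 442 and 435 CPM with the SETD5-AS1 ASO and 954 and 854 CPM with the LINC00641 ASO (log2 fold change -1.01, standard error 0.0827, edgeR adjusted p = 4.79e-06). The LINC00641 libraries were the high ones: JUN had 244, 267 and 288 CPM with the control ASO and 496, 547 and 497 CPM with the LINC00662 ASO. EGR1, a zinc finger factor induced by growth signals, had 2.32, 2.12 and 1.67 against 7.02 and 7.70 CPM (-1.85, edgeR adjusted p = 2.08e-04) and 45.1, 40.8 and 47.6 CPM with the control ASO, far above both.

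ATF3, a stress-induced factor, had 63.7, 56.0 and 67.9 against 119 and 118 CPM (-0.92, edgeR adjusted p = 3.37e-05), and MAFF, a small MAF factor, had 8.14, 10.1 and 7.55 against 17.3 and 16.6 CPM (-0.98, edgeR adjusted p = 0.00126). With any size of change 11 members of the list passed an adjusted p of 0.05 downwards and none upwards. Of all 18337 genes tested, 575 passed it downwards and 507 upwards. The 4 called members stayed called under all 12 alternatives.

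Potassium channel genes leaned the other way: 4 of 60 were called higher (6.67%, against 1.04% of all genes) and none lower, with a median of 0.212. KCNB2, a delayed rectifier subunit, had 6.06, 5.98 and 6.99 CPM with the SETD5-AS1 ASO and 1.37 and 2.07 CPM with the LINC00641 ASO (1.87, edgeR adjusted p = 5.44e-04). KCNQ5, of the M-current family, had 13.3, 15.1 and 14.7 against 10.2 and 6.92 CPM, near the size required at 0.75. KCNH6 and KCNIP1 were at low levels, 1.74 to 2.62 and 2.82 to 5.15 CPM with the SETD5-AS1 ASO. KCNB2 was called under all 12 alternatives, the other 3 were not, and DESeq2 called 2 of the 4.

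Solute carriers had 5 of 262 members called higher (1.91%, against 1.04% of all genes) and none lower (0.682% of all genes), among them SLC5A5, the sodium iodide symporter, SLC10A4, SLC38A6 and SLC2A13. None of these 4 was called under all 12 alternatives. Genes named AS1, antisense to another gene, had 6 of 361 called higher (1.66%) and 2 lower (0.554%), against 1.04% and 0.682% of all genes; the lower ones were SETD5-AS1 and TRAF3IP2-AS1. Counts of antisense genes may hold reads of the gene on the other strand, since the strand setting of the counting is not stated.

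In the Wnt pathway DKK3, a secreted protein of the Dickkopf family, rose (14.9, 15.3 and 12.9 against 7.25 and 6.78 CPM, log2 fold change 1.03), while TCF7L1, a nuclear partner of beta-catenin, and GSK3B, the kinase that marks beta-catenin for destruction, fell. TCF7L1 had 9.88, 9.77 and 10.3 against 23.4 and 22.8 CPM (-1.21) and GSK3B 26.4, 25.7 and 29.8 against 51.1 and 52.9 CPM (-0.93). GSK3B had 30.0, 28.5 and 31.1 CPM with the control ASO and 28.7, 34.2 and 27.9 CPM with the LINC00662 ASO, so the LINC00641 libraries were the high ones. Of the 43 members tested these 3 were called (2.33% higher and 4.65% lower, against 1.04% and 0.682% of all genes), and the median was -0.0247. In the list of RNase H, exonucleases and ASO-binding proteins 1 of 24 was called (4.17%, against 1.72% of all genes), RNASEH2C, a subunit of RNase H2. It had 65.0, 67.8 and 58.3 CPM with the SETD5-AS1 ASO, 121 and 124 CPM with the LINC00641 ASO and 175, 162 and 171 CPM with the control ASO (-0.94, edgeR adjusted p = 1.69e-05). The ATF4 and unfolded protein response list had CEBPB higher and ATF3 lower of 38 (2.63% each way).

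Other lists had 1 or a few called members, to be read against the 1.72% called of all genes. COL4A6, a chain of type IV collagen, had 19.1, 19.5 and 19.3 against 38.1 and 40.7 CPM (-1.03, edgeR adjusted p = 2.18e-05) and was the only one called of 41 matrix and integrin genes (2.44%). SEMA6A, a semaphorin of axon guidance, had 61.4, 62.4 and 59.7 against 105 and 102 CPM (-0.76), the only one of 54 axon guidance and synapse adhesion genes (1.85%). HSPB8, a small heat shock protein, had 6.81, 8.10 and 5.88 against 11.7 and 14.3 CPM (-0.91), the only one of 29 heat shock proteins and co-chaperones (3.45%). With the control ASO HSPB8 had 7.21, 5.74 and 8.09 CPM, near the SETD5-AS1 group. Zinc finger genes outside chromosome 19 had 3 of 241 called higher (1.24%) and 2 lower (0.830%), against 1.04% and 0.682% over all genes.

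Histone cluster genes, most of whose transcripts end without a poly(A) tail, had a median log2 fold change of 0.735, against 0.00857 over all genes, on few reads. HIST1H2AG, at 1.66, 1.89 and 3.49 against 0.382 and 0.571 CPM, was the only one called of 37 (2.70%, against 1.04% of all genes called higher), with 10 at an unadjusted edgeR p under 0.05; over the alternatives the number called higher ran from 0, by DESeq2 and without either LINC00641 ASO library, to 6 with a replicate block and 9 with no filter on low counts. The best counted of them, HIST1H2BK, had 17.6, 15.1 and 20.8 against 10.6 and 13.6 CPM (0.56, edgeR adjusted p = 0.0554).

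Subunits of the chromatin complexes around H3K27me3, the repressive mark at which the study places both lncRNAs, were not called; with 1.72% of all genes called, lists of this size would hold less than 1 called gene at that share, so the counts of 0 say nothing particular to them. None of 15 genes of PRC2, which writes the mark, and of the H3K27 demethylases passed, with 5 at an unadjusted p under 0.05 and log2 fold changes of -0.43 to 0.20. RBBP7, a histone-binding subunit, was the only one with an adjusted p under 0.05, at 445, 461 and 427 against 586 and 613 CPM (-0.43). EZH2, the catalytic subunit, had 154 ± 11.4 CPM (SD, n = 3) against 161 ± 19.1 CPM (SD, n = 2), a log2 fold change of -0.07. None of 28 PRC1 genes and none of 19 genes for H3K4 or H3K36 methylation was called, with 5 and 3 at an unadjusted p under 0.05.

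No HOX gene of 25 tested was called, with 2 at an unadjusted p under 0.05. HOXD10 and HOXD11, those with the highest counts, had log2 fold changes of -0.20 and -0.10 with overlapping groups. Interferon-stimulated and nucleic acid sensing genes had none of 31 called (5 at an unadjusted p under 0.05) and p53 targets none of 25 (7). Replication genes had none of 40 called (8), mitosis genes none of 38 (6) and cytosolic ribosomal proteins none of 81 (4). With 1.72% of all genes called, counts of 0 in lists of 25 to 81 genes say nothing particular to them. The counts at an unadjusted p are not set against a share over all genes.

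**Figure D5:**
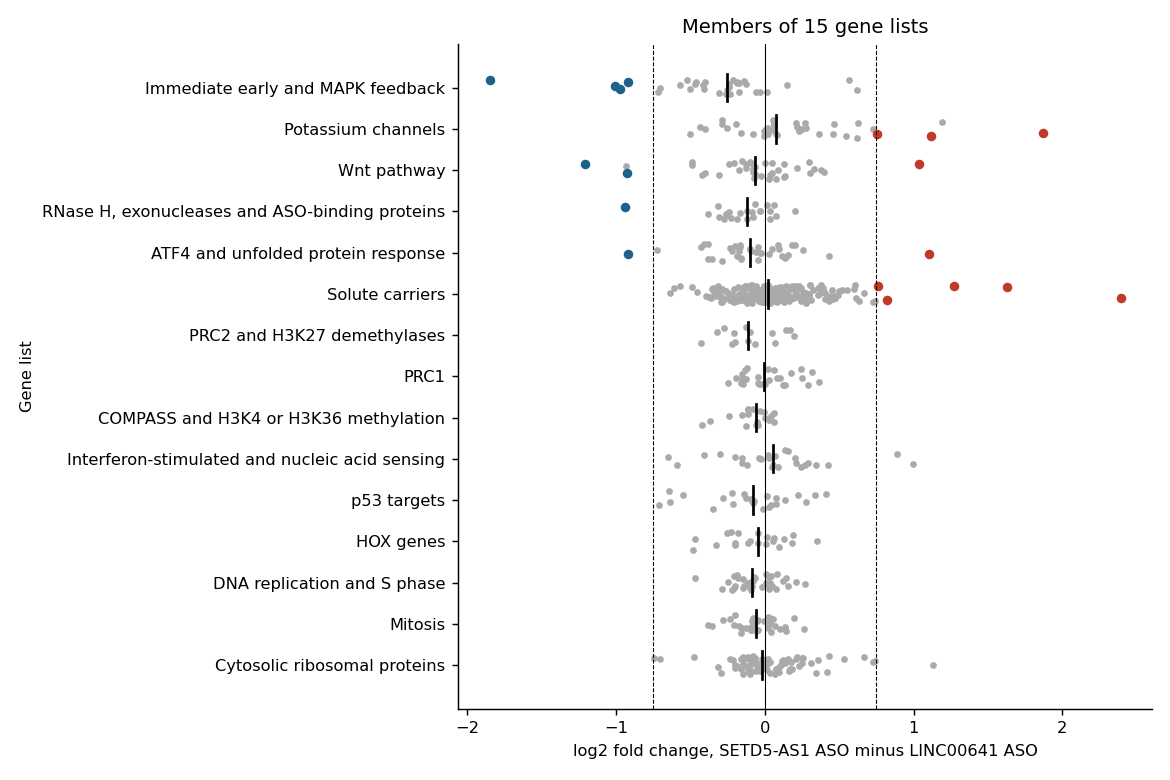
Log2 fold change (horizontal axis) of members averaging 20 counts or more in 15 gene lists; grey points were not called, red points were called higher and blue points lower, black bars are the medians of the members drawn and dashed lines mark 0.75. The immediate early list reaches lowest, with EGR1 at -1.85, and the chromatin, HOX, replication and mitosis lists lie between the dashed lines.

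Of the RNAs that the study names, the targets alone were called. NEAT1, the scaffold RNA of paraspeckles, had 752, 721 and 752 CPM with the SETD5-AS1 ASO and 919.8 and 968 CPM with the LINC00641 ASO (-0.35, edgeR adjusted p = 0.0167), under the size required. MALAT1, a nuclear speckle RNA, had 1153, 1068 and 1363 against 1139.8 and 936 CPM with overlapping groups (0.20). LINC00662, the target of the third ASO, had 19.4, 15.1 and 19.6 against 18.2 and 15.3 CPM, also overlapping.

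At the low end 4 of the higher genes had no read in either LINC00641 library. PDE1A, a phosphodiesterase, had 9, 9 and 8 reads in the SETD5-AS1 ASO libraries and was at least 6.21-fold higher when set against 3 reads over both LINC00641 libraries. CX3CL1, a chemokine, had 9, 2 and 9 reads and was at least 4.78-fold higher. RP11-182J1.14 and RP11-384F7.2 were each at least 4.30-fold higher.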

How the data were processed

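RNA-seq of HEK293T cells was available as raw read counts per gene, whole numbers with no normalization as the authors deposited them. The submitters' processing notes name FastQC 0.11.8, fastp 0.23.1, HISAT2 2.1.0, featureCounts 2.0.1 and DESeq2 1.34.0, with reads aligned to hg19 and counted over GENCODE v19. The gene length in the table is the span from start to end, so reads in introns may have been counted, and strand and shared reads are not stated. Of 57820 genes, those with a summed count over 15 in the 5 libraries (3 a library) were tested. The filter and thresholds followed the study's.

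Genes were tested in R 4.3.3 by edgeR 4.0.16 (quasi-likelihood, TMM), and a standard error is the fold change over the root of F. The procedure was tested on simulated counts. Depth limits low genes: 25 called genes had a mean under 20 counts. Intervals are not given for reads, since PCR copies are not independent. Genes named were the targets and SETD5, RNAs the study names, the 12 largest rises and 12 largest falls at a mean of at least 100 counts with no overlap, neighbours, and in each list up to 5 called members or the 2 best counted. The comparison, the lists and the genes were chosen with earlier results of these data known. ASO sequences came from the study's oligonucleotide list and were searched in GRCh37 with Python 3.11.15 and numba 0.67.0, exons from GENCODE v44 lifted to that build. Alternatives were DESeq2 1.42.0, its size factors, library size alone, no filter, filterByExpr, a replicate block, a fit of all 4 ASO groups and leaving out each library. The other tables of the series were not used here. One gene among the largest rises is not reported here.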

Additional observations from a re-analysis of the deposited data

How the results depend on the processing

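The count of higher genes was 191 in the comparison as reported, 306 without a filter on low counts, where 26314 genes were tested, and between 92 and 212 when 1 library was left out, lowest without LINC00641 ASO replicate 2 (92) and replicate 3 (93). The count of lower genes, 125, ranged from 85 to 144 over the same omissions and from 96 to 152 over the other settings. With 1 LINC00641 library left, that library is assumed to vary like the SETD5-AS1 ones. DESeq2 gave 151 higher and 110 lower genes, of which 150 and 110 were shared with edgeR. Keeping only SETD5-AS1 replicates 2 and 3 is the same fit as leaving out replicate 1. Of 57 called genes that were named, 36 were called under all 12 alternatives, and no direction turned.

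With the replicate number as a block, 197 genes were higher and 133 lower, of which 151 and 109 were shared with the fit without it. The numbers did not pair the libraries: over 10976 genes the differences between replicates 2 and 3 in the 2 groups had a correlation of 0.0553 over 2 pairs, and the labels give no shared origin.

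Across the alternatives, 35.5 to 47.1% of the lower genes had a stretch of 12 bases or more to a SETD5-AS1 ASO, and 8.06 to 13.9% of the higher genes.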
